A study of Mus musculus with 6 samples.

Results

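MHC class I antigen presentation was followed through 10 genes, chosen by name for their role in the pathway from the 22880 genes of the deposited table. They were the class I heavy chains H2-K1 and H2-D1, their light chain B2m, the peptide transporter genes Tap1 and Tap2, the loading chaperone Tapbp, the immunoproteasome subunits Psmb8 and Psmb9, the trimming enzyme Erap1 and the class I transactivator Nlrc5. All 10 were measured, and all 10 passed the filter on low counts that left 12014 genes for testing. The values came from MC-38GFP cells, a colon adenocarcinoma line of C57BL/6 mice that carries green fluorescent protein. HIF-1α-KD cells had a stable knock-down of HIF-1α, and Mock cells were their control. Cells of both groups had been transduced with pLKO.1-puro, a lentiviral vector for short hairpin RNAs, and had not been passaged in vivo. Both were grown orthotopically in the cecum wall of C57BL/6J mice, so the stroma of both kinds of tumor kept its normal HIF-1α. Living cells with GFP but without CD45 (leukocytes) or CD31 (endothelium) on their surface were sorted, and polyadenylated RNA was sequenced as 3 libraries of each group. The age of the mice, whether the knock-down cells were a single clone, and whether each library came from 1 tumor are not given in the sources used here, so the spread between libraries may be partly technical.

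Class I molecules show cytotoxic T cells a sample of the peptides made inside a cell. The proteasome cuts proteins into peptides, the TAP transporter carries the peptides into the endoplasmic reticulum, aminopeptidases trim them there, and tapasin and its partner chaperones load them onto a heavy chain bound to β2-microglobulin. Interferon-γ induces nearly every step of this pathway, NLRC5 drives the transcription of the heavy chains and several of their helpers, and tumor cells often lose parts of it.

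The libraries held between 19845838 and 30809238 reads counted on genes. Normalized counts of Hif1a were 6914, 5424 and 4945 in Mock libraries 1 to 3 and 697.3, 3142 and 1928 in HIF-1α-KD libraries 1 to 3. The groups did not overlap, and the log2 fold change was -1.82 (SE 0.46, limma adjusted p = 0.219). The knock-down was deepest in HIF-1α-KD library 1, and without that library the log2 fold change was -1.21. Car9, a target gene of HIF-1α that encodes a carbonic anhydrase, had 4470, 3382 and 4356 normalized counts in Mock, against 212.3, 663.1 and 1041 in HIF-1α-KD cells (log2 fold change -2.93, limma adjusted p = 0.0553). Of the epithelial markers of the labelled carcinoma, 2 of 7 passed the filter, and the list summed to between 1.34 and 13.2 FPKM (reads scaled by gene length and library total) per library, highest in Mock library 3.

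The promoters of the heavy chains and of B2m carry well known control sequences of the pathway, an NF-κB site, an interferon-stimulated response element and the module to which the NLRC5 complex is recruited, and are shown for that reason. The 170 bases before the RefSeq start site of H2-K1 (GRCm38.p6, chr17:34000348-34000517, minus strand) and of B2m (GRCm38.p6, chr2:122147517-122147686, plus strand) are printed 5′ to 3′. Capitals mark matches to GGGATTCCC (the centre of the NF-κB site of class I genes) and TTTCACTTC (from the response element of class I genes). They also mark GAAANNGAA (a repeat form of the response element), TGACG (the core of a cyclic AMP response element) and ATTGG (the other strand of a CCAAT box). TTTCACTTC does not match GAAANNGAA on either strand, so these 2 patterns are separate.
H2-K1: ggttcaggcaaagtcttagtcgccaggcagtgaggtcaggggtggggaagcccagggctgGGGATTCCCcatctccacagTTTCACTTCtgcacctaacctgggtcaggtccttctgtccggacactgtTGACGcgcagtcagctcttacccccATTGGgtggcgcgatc
B2m: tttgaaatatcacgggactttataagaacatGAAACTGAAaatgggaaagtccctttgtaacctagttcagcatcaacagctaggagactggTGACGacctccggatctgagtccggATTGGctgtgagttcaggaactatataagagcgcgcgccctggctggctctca
In both promoters TGACG was followed downstream by ATTGG. H2-K1 held the NF-κB letters next to TTTCACTTC, whereas B2m held neither of these and had the repeat GAAANNGAA.

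The H2-K1 and H2-D1 windows were alike in 206 of 228 aligned bases (90.4%). The stretch that holds the NF-κB site and the response element is printed for both, and for the relatives H2-Q7 and H2-Q4, of which H2-Q4 held no exact match to the NF-κB letters. Capitals mark exact matches to GGGATTCCC or TTTCACTTC, and the fifth sequence shows, in capitals, the TGACG match of Tap1. The stretches lie at chr17:34000429-34000458 (minus strand), chr17:35262923-35262952, chr17:35439021-35439050, chr17:35379443-35379472 and chr17:34187458-34187487 (plus strand), in GRCm38.p6.
H2-K1: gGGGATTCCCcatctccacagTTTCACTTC
H2-D1: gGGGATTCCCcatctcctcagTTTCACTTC
H2-Q7: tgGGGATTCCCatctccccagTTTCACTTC
H2-Q4: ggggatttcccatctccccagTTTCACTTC
Tap1: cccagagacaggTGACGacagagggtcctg
RefSeq windows of 300 bases (250 before to 50 after the start) were at hand for 8 of the 10 genes, the exceptions being Tap2 and Nlrc5, and all motifs were searched on both strands. GGGATTCCC was found in H2-K1 and H2-D1 and in 0.370% of 27025 windows, and TTTCACTTC in the same 2 genes and in 0.522% of windows. GAAANNGAA was found in B2m and Erap1 and in 8.57% of windows. TGACG was present in 5 of the 8 genes (21.0% of windows), and ATTGG in 6 of the 8 (37.9% of windows). ACGTG, the core letters of a hypoxia response element, was present in Erap1 alone among the 8, and in 19.7% of windows. These matches are letters in a window and not measured binding.

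The class I genes were among the most abundant transcripts of the sorted cells. H2-D1 had a mean of 2840 FPKM over the 6 libraries and ranked 17 among all genes, B2m had 2435 FPKM (rank 27), and H2-K1 had 1686 FPKM (rank 56). Below them came Tapbp with 552 FPKM, Psmb8 with 204 FPKM, Tap1 with 128 FPKM, Tap2 with 107 FPKM, Psmb9 with 96.0 FPKM, Erap1 with 47.4 FPKM and Nlrc5 with 9.88 FPKM (rank 6965). Each gene was above the next in this order in 6 of 6 libraries, except that H2-D1 was above B2m, and Tap2 above Psmb9, in 5 of 6, so the neighbours of these pairs did not separate beyond their spread. This order depends on the gene length that the authors used. The deposited length was shorter than the longest coding transcript for 9 of the 10 genes. As a share of that transcript, the gap was largest for Nlrc5 (2550 against 7578 bases), Tapbp (1060 against 2898), Tap2 (1420 against 3442) and H2-D1 (904 against 2102). Rescaled to that transcript, B2m came first with 2435 FPKM, before H2-D1 with 1221 FPKM and H2-K1 with 1167 FPKM, Psmb9 (78.8 FPKM) lay above Tap2 (44.1 FPKM), and the other genes kept their order. H2-D1 was then above H2-K1 in 4 of 6 libraries, and Tapbp above Psmb8 and Tap2 above Erap1 in 5 of 6, so these neighbours did not separate beyond their spread. This rescaling was chosen after the values had been seen. The 10 genes together took between 0.667% of the reads in HIF-1α-KD library 1 and 1.01% in Mock library 3.

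**Figure D1:**
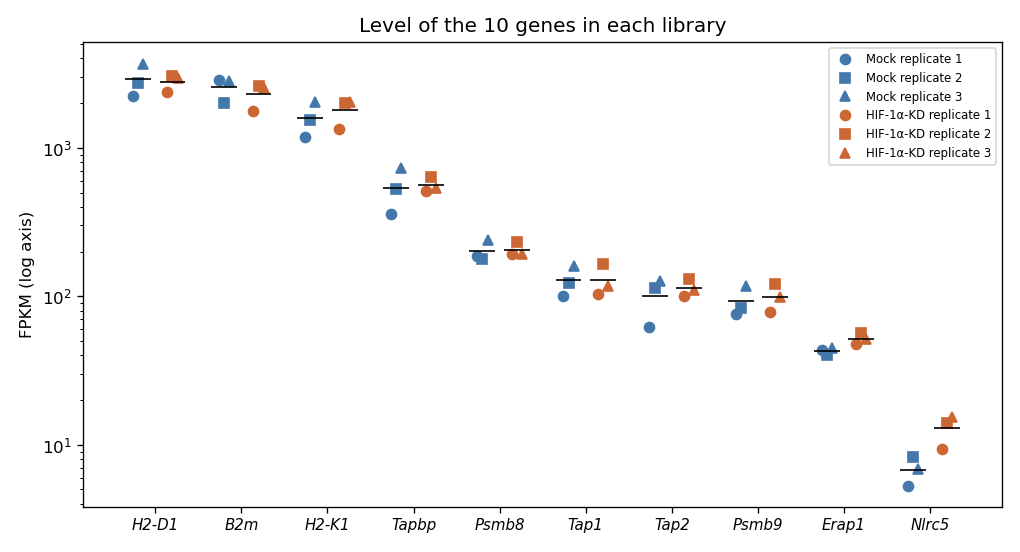
Level of the 10 class I pathway genes in each library, in FPKM on a log axis. Points are single libraries, 3 Mock and 3 HIF-1α-KD, in order of the mean level. The levels run from 2840 FPKM for H2-D1 to 9.88 FPKM for Nlrc5, and the groups overlap for 8 of the 10 genes.

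No class I pathway gene passed the adjusted p-value limit of 0.05 between the groups (limma, 0 of 10, against 0.391% of the genes tested). With an unadjusted p-value under 0.05, 1 of 10 differed, Nlrc5, against 12.7% of the genes tested. The groups did not overlap for 2 of 10 genes, Nlrc5 and Erap1, against 19.2% of the genes tested, so these shares were near the background. The edgeR test on the recovered reads also called 0 of 10 (0.391% of the genes tested), and DESeq2 called 1 of 10, Nlrc5 (2.36% of the genes tested). Positive log2 fold changes mean higher levels in HIF-1α-KD cells. The sign was positive for 6 genes and negative for 4, with a median log2 fold change of 0.05, beside 0.02 over all genes tested. For the 9 genes other than Nlrc5 the 95% intervals held 0, and over these 9 genes they reached from 0.605 to 1.67 times the Mock level. The lowest bound was that of B2m (0.605 to 1.21) and the highest that of Tap2 (0.761 to 1.67). For each gene the data therefore leave room for differences within its own interval.

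**Figure D2:**
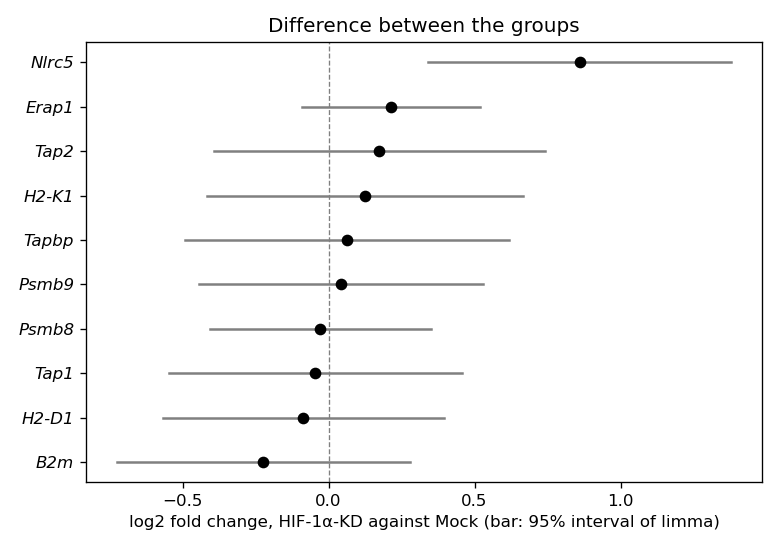
Log2 fold change of normalized counts, HIF-1α-KD minus Mock, for the 10 class I pathway genes. Points are limma estimates from 3 against 3 libraries and bars are 95% confidence intervals. The interval of Nlrc5, from 0.34 to 1.38, lies above 0, and the other 9 hold 0.

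The heavy chains present the peptide. H2-K1 (ENSMUSG00000061232, GRCm38 chr17:33996017-34000347) encodes the K molecule. The Mock libraries gave 34000, 41370 and 58250 normalized counts, against 36940, 53400 and 53840 in HIF-1α-KD cells. The Mock libraries held both the lowest and the highest value, and the log2 fold change was 0.12 (SE 0.24, limma adjusted p = 0.854). H2-D1 (ENSMUSG00000073411, GRCm38 chr17:35262730-35267499) encodes the D molecule. Mock cells showed 51630, 59720 and 85410 normalized counts, against 53200, 65080 and 63590 in HIF-1α-KD cells. Here too all HIF-1α-KD values lay inside the Mock range (log2 fold change -0.09, SE 0.21, limma adjusted p = 0.895).

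Reads of the heavy chains can be hard to assign, because class I genes resemble each other. Of the stretches of 114 bases in the longest coding transcript, 0 of 1506 of H2-K1 and 79 of 1989 of H2-D1 (3.97%) also occurred in a transcript of another gene, among them H2-Q1 and H2-T23. No such stretch was shared by the 8 other genes.

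Because H2-D1 and H2-K1 were scaled alike within a library, their ratio does not depend on the scaling. The ratio of H2-D1 to H2-K1 FPKM was 1.88, 1.79 and 1.82 in Mock, against 1.78, 1.51 and 1.46 in HIF-1α-KD cells. The groups did not overlap, by a narrow margin in HIF-1α-KD library 1. The log2 ratio in HIF-1α-KD minus Mock cells was -0.21. This ratio was chosen after the values had been seen, so no p-value is given for it.

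B2m (ENSMUSG00000060802, GRCm38 chr2:122147686-122153083) encodes β2-microglobulin, the light chain shared by all classical class I molecules. Its normalized counts were 63450, 41510 and 62290 in Mock, against 37510, 53170 and 51620 in HIF-1α-KD cells. It was highest in Mock library 1, where H2-K1 and H2-D1 were lowest, and its log2 fold change was -0.22 (SE 0.22, limma adjusted p = 0.710). The ratio of B2m FPKM to the sum of H2-K1 and H2-D1 FPKM was 0.844 in Mock library 1 and between 0.469 and 0.517 in the other 5 libraries. Mock library 1 thus stood apart from the other libraries in this ratio, which was also chosen after the values had been seen.

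The transporter and its chaperone bring peptides to the heavy chains. Tap1 (ENSMUSG00000037321, GRCm38 chr17:34187553-34197225) encodes one chain of the transporter. It had 6040, 6978 and 9677 normalized counts in Mock, against 6097, 9266 and 6574 in HIF-1α-KD cells, with full overlap (log2 fold change -0.05, SE 0.22, limma adjusted p = 0.949). Tap2 (ENSMUSG00000024339, GRCm38 chr17:34203527-34216321) encodes the other chain. The Mock libraries gave 2258, 3869 and 4583 normalized counts, against 3528, 4389 and 3706 in HIF-1α-KD cells. Mock library 1 lay below the 5 other libraries (log2 fold change 0.17, SE 0.25, limma adjusted p = 0.810). Tapbp (ENSMUSG00000024308, GRCm38 chr17:33915899-33929292) encodes tapasin, which bridges the transporter and the heavy chain. Mock cells showed 9695, 13360 and 19920 normalized counts, against 13540, 16130 and 13500 in HIF-1α-KD cells. The Mock libraries spanned a 2.05-fold range and the HIF-1α-KD libraries a 1.19-fold range within it (log2 fold change 0.06, SE 0.24, limma adjusted p = 0.936).

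Psmb8 (ENSMUSG00000024338, GRCm38 chr17:34197721-34201454) and Psmb9 (ENSMUSG00000096727, GRCm38 chr17:34181987-34187764) encode catalytic subunits that replace those of the constitutive proteasome. Psmb8 had 7003, 6194 and 8901 normalized counts in Mock, against 6896, 7958 and 6638 in HIF-1α-KD cells. All HIF-1α-KD values lay inside the Mock range (log2 fold change -0.03, SE 0.17, limma adjusted p = 0.958). Psmb9 had 2178, 2240 and 3344 normalized counts in Mock, against 2143, 3196 and 2601 in HIF-1α-KD cells. The groups overlapped across nearly their whole range (log2 fold change 0.04, SE 0.21, limma adjusted p = 0.949).

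The balance between the immunoproteasome and the constitutive proteasome was taken as the mean of the log2 FPKM ratios of Psmb8 to Psmb5, Psmb9 to Psmb6 and Psmb10 to Psmb7. It was -0.80, -0.60 and -0.19 in Mock, against -0.57, -0.15 and -0.35 in HIF-1α-KD cells. The Mock mean was -0.53 ± 0.31 (SD, n = 3) and the HIF-1α-KD mean -0.36 ± 0.21 (SD, n = 3), a difference of 0.17 that was smaller than the spread among Mock libraries (two-sided exact permutation p = 0.4). The difference was 0.037 without Mock library 1, 0.071 without HIF-1α-KD library 2, 0.28 without HIF-1α-KD library 1 and 0.34 without Mock library 3. None of the 3 pairs separated the groups, with differences of 0.18 for Psmb8 to Psmb5 (exact permutation p = 0.5), 0.10 for Psmb9 to Psmb6 (exact permutation p = 0.8) and 0.24 for Psmb10 to Psmb7 (exact permutation p = 0.9). Over these 4 tests the adjusted exact permutation p was 0.9 for each, and 3 against 3 libraries cannot give an exact p below 0.1.

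**Figure D3:**
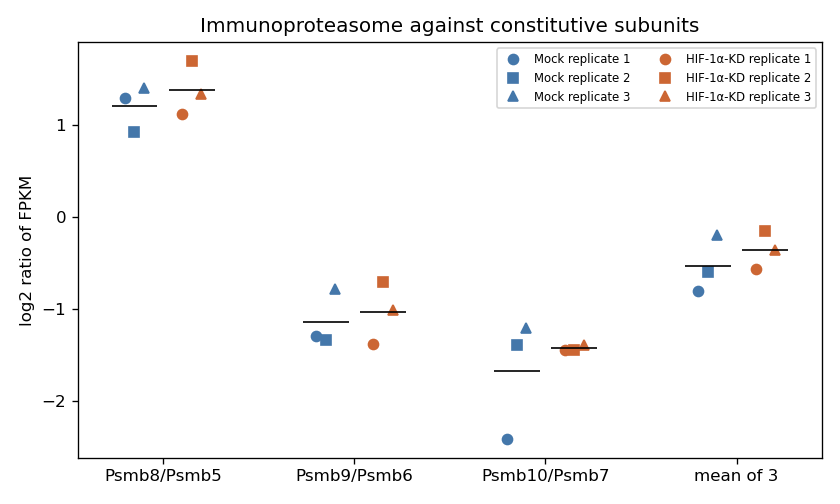
Log2 ratio of each inducible proteasome subunit to its constitutive counterpart, in FPKM, by library, and the mean of the 3 ratios. Points are single libraries and lines are group means. Mock and HIF-1α-KD points overlap in every ratio, and the mean of the ratios is -0.53 in Mock and -0.36 in HIF-1α-KD cells.

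Nlrc5 (ENSMUSG00000074151, GRCm38 chr8:94434356-94527272) encodes the transactivator of class I genes. Its normalized counts were 347.2, 503.4 and 449.4 in Mock, against 592.0, 852.5 and 934.5 in HIF-1α-KD cells, from between 282 and 809 reads per library. Every HIF-1α-KD library lay above every Mock library. The log2 fold change was 0.86 (SE 0.23, 95% interval 0.34 to 1.38), a level 1.82 times that of Mock cells with an interval of 1.27 to 2.60. The unadjusted p-value of limma was 0.00467, and after adjustment over all genes it was 0.238, above the threshold. Over the alternatives of test, scaling, filter and library, its log2 fold change was between 0.71 and 1.06 and its adjusted p-value between 0.0321 (DESeq2) and 0.510 (limma without Mock library 1). Relative to the mean of the other 9 genes in the same library, the log2 level of Nlrc5 was -4.85, -4.42 and -5.05 in Mock, against -4.14, -4.001 and -3.67 in HIF-1α-KD cells. This difference of 0.83 was examined after the values had been seen, so no p-value is given for it.

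Erap1 (ENSMUSG00000021583, GRCm38 chr13:74639568-74693201) encodes the aminopeptidase that trims peptides in the endoplasmic reticulum. It had 4490, 3901 and 4572 normalized counts in Mock, against 4744, 5384 and 4892 in HIF-1α-KD cells. The HIF-1α-KD libraries all lay above the Mock libraries, by a small margin between Mock library 3 and HIF-1α-KD library 1. The log2 fold change was 0.21 (SE 0.13, 95% interval -0.09 to 0.52), with a limma unadjusted p-value of 0.146 and an adjusted p-value of 0.545.

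Of the 10 genes, 7 share exonic bases with another gene of the GENCODE annotation. Among them are Tap1 and Psmb9, which lie head to head on opposite strands and overlap in GENCODE, whereas their RefSeq start sites are 225 bases apart. The library kit kept the strand, but the strand setting used for counting is not given in the sources used here, so reads in such stretches cannot be assigned to 1 gene with certainty. Nlrc5 overlaps 9330175E14Rik and Erap1 overlaps Cast.

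Mock library 3 was the highest of the 6 for 7 of the 10 genes, and Mock library 1 the lowest for 6. After each gene was standardized over the 6 libraries, the mean of the 10 genes was -0.83, -0.56 and 0.97 in Mock, against -0.53, 0.79 and 0.16 in HIF-1α-KD cells. The lowest and the highest mean were thus both Mock libraries. For 9 of the 10 genes the range on the log2 scale was wider in Mock than in HIF-1α-KD cells, with Nlrc5 as the exception. The share of all genes tested with such patterns was not computed, so these counts describe the libraries and not a trait of the pathway.

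Over the 6 libraries, in which all genes share the scaling factor, Tap1 and Psmb9 had a Pearson correlation of 0.945 and Tap2 and Tapbp one of 0.930. B2m was less aligned with the heavy chains (0.326 with H2-K1 and 0.422 with H2-D1), and Nlrc5 had 0.556 with H2-K1 and 0.131 with H2-D1. The genes outside the 10 whose pattern was most like their mean included Uxt (0.982), Mul1 (0.982), Fuz (0.976), Rab3ip (0.973), Zbp1 (0.970), Cox18 (0.961), H2-Q7 (0.957), Lsm7 (0.956) and Idnk (0.949). With 6 libraries and 12014 genes, values of this size are a description of these libraries only.

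The rest of the pathway was described with lists of heavy chain relatives, class I-like molecules, chaperones, proteasome subunits, peptidases, transcription factors, interferon signaling, interferon-stimulated genes and class II presentation. Of 89 genes listed, 85 were in the table and 76 passed the filter. At an adjusted p-value under 0.05 limma, edgeR and DESeq2 each called 0 of 76. With an unadjusted p-value under 0.05 limma found 7 higher and 2 lower in HIF-1α-KD cells, 11.8% of the 76 beside 12.7% of all genes tested. That number rested on single libraries. It was 2 (2.60% of list genes, beside 8.42% of all genes tested) without Mock library 1, 3 (3.90%, beside 8.78%) without HIF-1α-KD library 2, and 4 (5.19%, beside 12.8%) without Mock library 2. It was 17 (22.4%, beside 11.8%) without Mock library 3 and 18 (23.4%, beside 11.8%) without HIF-1α-KD library 1. The median log2 fold change of the 76 was 0.11.

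Of 6 tested relatives of the heavy chains, 0 had an unadjusted p-value under 0.05 (limma). Their log2 fold changes were positive for 4 and negative for 2, from -0.35 to 0.60, with a median of 0.19. Among them H2-Q7 had 0.32 (limma adjusted p = 0.713). H2-Q7 shared 14.5% of its stretches of 114 bases with other genes, so its level is uncertain. The 5 class I-like molecules also gave 0, with a median of -0.18. Of the 5 chaperones of peptide loading, all had positive values, with a median of 0.23. Pdia3, the disulfide isomerase bound to tapasin, had 18820, 18630 and 19320 normalized counts in Mock, against 25630, 24180 and 21110 in HIF-1α-KD cells. The groups did not overlap, and the log2 fold change was 0.32 (SE 0.14, limma adjusted p = 0.390). Uggt1, which checks the folding of glycoproteins, had 7673, 8291 and 10840 normalized counts in Mock, against 12460, 11890 and 10600 in HIF-1α-KD cells (log2 fold change 0.40, SE 0.16, limma adjusted p = 0.382). The groups of Uggt1 overlapped at Mock library 3.

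The 4 partners of the immunoproteasome and the 3 constitutive subunits each held 0 genes with an unadjusted p-value under 0.05 (limma), with median log2 fold changes of 0.04 and -0.06. Of 7 peptidases, 1 had such a p-value, Npepps, a cytosolic aminopeptidase. The Mock libraries gave 6451, 5572 and 4976 normalized counts, against 4326, 4094 and 3763 in HIF-1α-KD cells, without overlap (log2 fold change -0.47, SE 0.15, limma adjusted p = 0.277). The 14 transcription factors of class I genes gave 0. Irf1, an interferon-induced activator of the pathway, had a log2 fold change of 0.32 (SE 0.17, limma adjusted p = 0.474).

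Of 9 genes of interferon signaling, with a median of 0.20, 1 had an unadjusted p-value under 0.05 (limma). This gene, Ifngr2, a chain of the interferon-γ receptor, had 1330, 1308 and 1579 normalized counts in Mock, against 1942, 1815 and 1595 in HIF-1α-KD cells (log2 fold change 0.34, SE 0.15, limma adjusted p = 0.392). The groups did not overlap, and the nearest libraries were Mock 3 and HIF-1α-KD 3. The 16 interferon-stimulated genes had a median of -0.21, and 14 of them were lowest in HIF-1α-KD library 1. Their log2 fold changes were positive for 8 and negative for 8, and ran from -1.46 to 1.52. Rsad2, the antiviral protein viperin, was the 1 gene among them with an unadjusted p-value under 0.05. Mock cells showed 1615, 1252 and 1154 normalized counts, against 168.1, 694.3 and 959.9 in HIF-1α-KD cells (log2 fold change -1.46, SE 0.55, limma adjusted p = 0.342).

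The class II genes, which present peptides from outside the cell and are driven by Ciita as class I genes are by Nlrc5, had a median log2 fold change of 2.24, with positive values for all 7. The values were 0.04 for H2-DMb1 (limma adjusted p = 0.962) and 0.64 for H2-DMa (limma adjusted p = 0.564), which encode chains that help to load class II molecules, and 2.14 for H2-Aa (limma adjusted p = 0.412). Of the 7, 4 had an unadjusted p-value under 0.05 (limma), beside 12.7% of all genes tested. Ciita was covered by 0, 3 and 14 reads in Mock, against 23, 88 and 29 reads in HIF-1α-KD cells. In normalized counts the nearest libraries almost touched, with 16.9 in Mock library 3 and 18.5 in HIF-1α-KD library 1 (limma adjusted p = 0.291). Cd74, the invariant chain, had 204.4, 213.4 and 1579 normalized counts in Mock, against 720.7, 5585 and 2860 in HIF-1α-KD cells (log2 fold change 2.46, SE 0.89, limma adjusted p = 0.333). H2-Ab1 had a log2 fold change of 2.24 (SE 0.92, limma adjusted p = 0.379) and H2-Eb1 one of 2.47 (SE 1.01, limma adjusted p = 0.379). Mock library 3 lay above HIF-1α-KD library 1 for Cd74, H2-Ab1 and H2-Eb1.

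Class II genes are also expressed by leukocytes, which the sort was meant to remove, and in bulk libraries a change in the number of cells of a type and a change in RNA per cell cannot be told apart. The summed class II level was 71.8, 61.9 and 237 FPKM in Mock, against 106, 664 and 344 FPKM in HIF-1α-KD cells. The summed level of 19 leukocyte markers was 168, 182 and 185 FPKM in Mock, against 109, 128 and 543 FPKM in HIF-1α-KD cells. A large part of each sum was Lyz2 alone, with 72.0, 77.7 and 80.6 FPKM in Mock, against 54.5, 62.9 and 294.6 FPKM in HIF-1α-KD cells. HIF-1α-KD library 3 was the highest for 16 of the 19 markers, whereas all 7 class II genes were highest in HIF-1α-KD library 2, in which 12 of the 19 markers lay below every Mock library. The T and B cell markers Cd3e, Cd8a, Cd4 and Ms4a1 had at most 11 reads in a library. Of the 14 leukocyte markers tested, 0 had an unadjusted p-value under 0.05 (limma). Nlrc5 was 852.5 in HIF-1α-KD library 2 and 934.5 in library 3, the libraries with the highest class II sums, and the part of leukocyte RNA in its level was not tested.

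**Figure D4:**
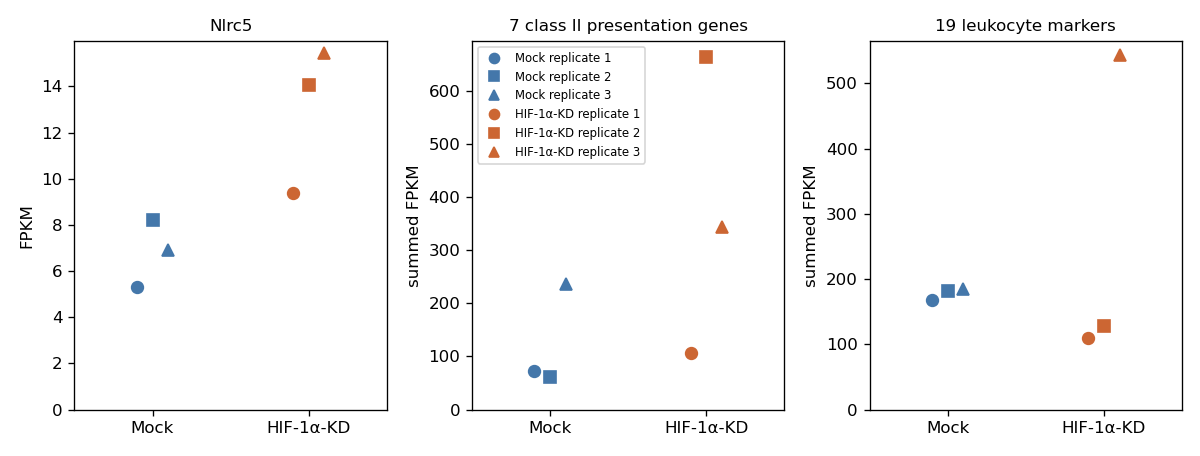
Level of Nlrc5, summed level of 7 class II genes and summed level of 19 leukocyte markers in each library, in FPKM. The class II sum is highest in HIF-1α-KD library 2 (664 FPKM), the leukocyte sum in HIF-1α-KD library 3 (543 FPKM), and Nlrc5 is above every Mock library in all 3 HIF-1α-KD libraries.

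Endothelial markers summed to between 8.82 and 11.3 FPKM per library, and fibroblast and pericyte markers to between 405 and 961 FPKM. Whether these transcripts came from other cell types or from the tumor cells themselves was not tested. An unadjusted p-value under 0.05 (limma) was found for 1 of 4 tested endothelial markers (lower), 2 of 5 fibroblast and pericyte markers (higher) and 0 of 2 epithelial markers, beside 12.7% of all genes tested, and for 0 of these at an adjusted p-value under 0.05. The fibroblast sum was mostly that of Dcn, with 906 of 961 FPKM in Mock library 3, where it was highest. The 4 other markers of that list summed to between 54.9 FPKM (Mock library 3) and 123 FPKM (HIF-1α-KD library 1). The part of these markers in the class I values was not tested.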

How the data were processed

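RNA was measured in 3 Mock and 3 HIF-1α-KD libraries of sorted tumor cells, grouped by their labels. According to the methods, trimming, alignment with STAR, counting with featureCounts and a DESeq2 test were used by the authors. The reference is given there as GRCh38, whereas the labels name GRCm38 and the identifiers are those of mouse genes. The deposited normalized counts are a signal, the gene's count divided by 1 factor per library. The authors also deposited FPKM values. The deposited log2 ratio, p-value and false discovery rate hold the authors' own comparison and were not used.

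Reads were recovered by removing the factor, and 100% of values up to 300 reads were then whole (within 0.1 read). Genes were filtered with filterByExpr (edgeR 4.0.16, minimum count of 10, by group). Values were taken as log2(normalized count + 1) and compared with limma 3.58.1 with a mean-variance trend, two-sided, with Benjamini-Hochberg adjustment over the 12014 genes tested. Ratios used FPKM plus 0.1 and an exact permutation test. Alternatives covered edgeR and DESeq2 1.42.0 on recovered reads, scaling, filter, pseudocount, replicate number as a block and leaving out each library. The scripts were tested on simulated data. The 10 genes and all lists were chosen with earlier results of these data known. The text names the 10 genes, list genes at an unadjusted p-value under 0.05, further abundant list genes, the 10 genes most alike in pattern, and Hif1a and Car9. Irf1 was named for its role, after its values had been seen. A few genes that this rule would name are not reported here. Positions are from GENCODE (GRCm38) and promoters from RefSeq (GRCm38.p6). R 4.3.3 and Python 3.11.15 were used. Depth was 19845838 to 30809238 reads on genes, and 4 listed genes (H2-K2, H2-Q5, H2-T10 and H2-Bl) were not analysed here.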

Additional observations from a re-analysis of the deposited data

How the results depend on the processing

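At an adjusted p-value under 0.05 limma called 47 of all genes tested, DESeq2 called 283 and limma with the replicate block called 0. Leaving out 1 library at a time gave between 0 (without Mock library 3 and without HIF-1α-KD library 2) and 38 (without HIF-1α-KD library 1), with 2 without Mock library 1, 11 without Mock library 2 and 8 without HIF-1α-KD library 3. The replicate numbers did not pair the libraries, since the correlations of same-numbered libraries were -0.139, -0.123 and 0.0228. Of the 10 class I pathway genes, DESeq2 called 1, Nlrc5 (log2 fold change 0.86, adjusted p = 0.0321), and every other alternative called 0, the block included (Nlrc5 limma adjusted p = 0.235). List genes at an unadjusted p-value under 0.05 numbered 9 with limma, 4 with edgeR (5.26%, beside 12.4% of all genes tested) and 5 with DESeq2 (6.58%, beside 13.0%), and between 2 and 18 with each library left out (2.60% to 23.4%, beside 8.42% to 12.8%). The sign of small log2 fold changes turned for Tap1 (0.011) and Psmb8 (0.028) under scaling by library size, and for Tapbp with edgeR (-0.017) and DESeq2 (-0.0077). With each library left out, the log2 fold change was between -0.052 and 0.34 for H2-K1, -0.24 and 0.12 for H2-D1, -0.23 and 0.15 for Tap1, -0.13 and 0.38 for Tap2, -0.19 and 0.33 for Tapbp, -0.14 and 0.12 for Psmb8, and -0.10 and 0.24 for Psmb9. The sign of B2m (-0.42 to -0.06), Nlrc5 (0.71 to 1.06) and Erap1 (0.14 to 0.26) did not turn in these. The median of the 10 genes was between -0.09 and 0.25. The cause was not tested. The immunoproteasome to constitutive difference was between 0.037 and 0.34 with each library left out.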
